A study of Mus musculus with 24 samples.

Results

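The proteasome genes of the mouse heart are described here across 6 times of day. The members are the genes whose only symbol in the platform's probe annotation begins with Psma to Psmg and a digit. These are 49 of 22180 measured genes, and 47 of the 49 encode subunits, assembly factors, activators or inhibitors of the proteasome. The other members share only the start of the symbol with them: Psmc3ip encodes a protein of meiotic recombination, and Psme3ip1 a protein that binds the activator encoded by Psme3. Psma4 is not a member because its features carry the symbols of more than 1 gene.

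The proteasome degrades proteins that carry chains of ubiquitin. Its 20S core is a barrel of outer alpha rings (Psma genes) and inner beta rings (Psmb genes), and Psmb5, Psmb6 and Psmb7 hold the peptidase sites. The 19S cap contains a ring of ATPases (Psmc genes) that unfolds substrates, and non-ATPase subunits (most Psmd genes) that bind and remove ubiquitin. Dedicated chaperones assemble both particles, and other activators (Psme genes) can replace the cap. In heart muscle the system turns over contractile proteins, and subunits of 1 particle are needed in fixed proportions.

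All hearts came from male mice of 8 weeks that carry the Clock mutation delta 19 on both alleles, kept in cycles of 12 h of light and 12 h of dark. The allele lacks an exon of Clock, and its protein activates transcription poorly, in every tissue of the animal. The groups differ only in time of day: ZT03, ZT07 and ZT11 fall while lights were on, ZT15, ZT19 and ZT23 while they were off, and ZT is zeitgeber time, the hours since lights on. Each group has 4 biological replicates, 24 arrays in all. The labels do not say whether a sample pools animals, so p-values measure the spread between these samples. Wild-type hearts were not analysed here, and no result speaks of the mutation's effect.

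The measured quantity was RNA abundance on one-colour arrays. Values are on a log scale, taken as log2, and the authors had set the median of each feature over the 24 arrays to 0. A value is therefore a difference from that gene's own median and carries no level, so subunits cannot be ranked by abundance and the tissue cannot be checked by the level of its markers. In bulk tissue, fewer cells of a type and less RNA per cell cannot be told apart. Array medians lay between -0.0080 and 0.0023. The array of ZT11 replicate 1 had the largest spread (SD 0.149, against a median of 0.106 over arrays) and the lowest weight in a fit that weighs arrays, 0.54. The number of arrays limits the precision.

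The proteasome genes that passed a test did not all move one way. Only Psma1, of the alpha ring, passed the test of any difference among the 6 time points over all genes. Between early and late light (ZT03 against ZT11), Psma1 and the activator gene Psme4 were higher at ZT03, while Psmb3, Psmc3 and Psmd3, genes of the beta ring, the ATPase ring and the cap, were lower. Psmd5, a chaperone of 19S assembly, differed most in size, by 0.63 ± 0.13 (SE) on the log2 scale between ZT03 and ZT15. These differences stand for factors of 1.12 to 1.55, if the log base is 2.

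**Figure D1:**
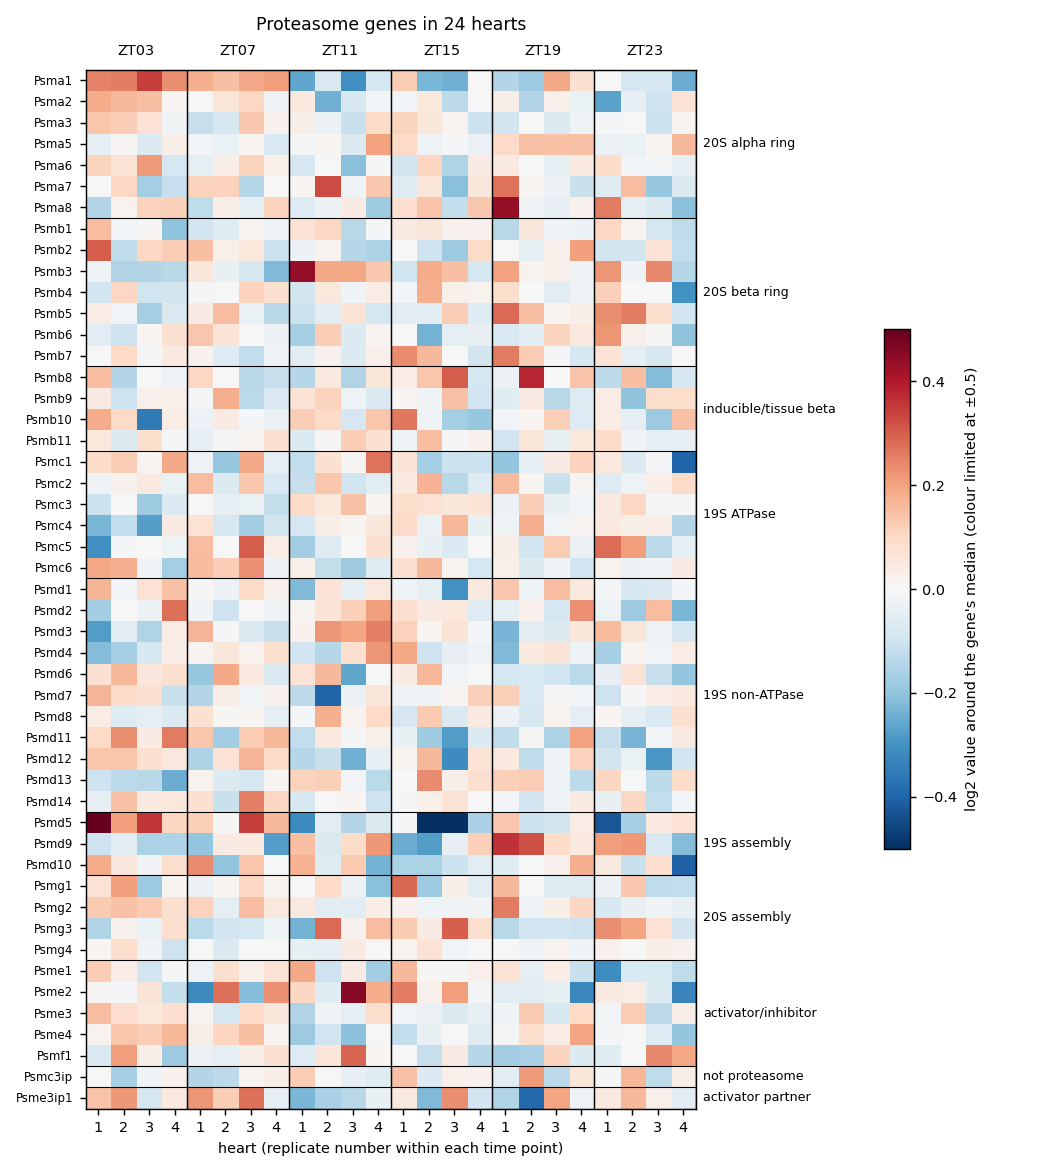
Heat map of single hearts (columns, 4 hearts at each of 6 time points) for the 49 members (rows, grouped by role). Colours are log2 values around each gene's own median. The means over 4 hearts, which are not drawn, run for Psmd5 and Psma1 from 0.31 and 0.27 at ZT03 to -0.32 at ZT15 and -0.18 at ZT11. Neighbouring rows of the same role can run the other way.

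Psma1 encodes a subunit of the alpha ring, which gates entry to the core. Its 4 hearts lay at 0.25, 0.26, 0.35 and 0.23 at ZT03 and at 0.18, 0.15, 0.19 and 0.21 at ZT07. At ZT11 they lay at -0.26, -0.075, -0.31 and -0.088, and at ZT15 at 0.13, -0.23, -0.24 and -8.8e-05. All hearts of ZT03 were above all hearts of ZT11 and of ZT15, and the 8 early-light hearts were above the highest ZT23 heart. The ZT19 hearts ranged from -0.18 to 0.19 and the ZT23 hearts from -0.25 to 8.8e-05. Means were 0.27 ± 0.05 (SD, n = 4) at ZT03 and -0.18 ± 0.12 (SD) at ZT11. The F test of limma over the 6 means gave a Benjamini-Hochberg adjusted p of 0.023 for Psma1, the only member called of 49, while 1.48% of all genes were called. The difference between ZT03 and ZT11 was 0.45 ± 0.083 (SE), adjusted p = 0.0071 (limma, Benjamini-Hochberg). That call was kept under each of the 31 alternatives run, with adjusted p from 0.0041 to 0.032. The difference between ZT03 and ZT15 was 0.36 ± 0.083 (SE), adjusted p = 0.040 (limma). The F test lost Psma1 without ZT03 replicate 2 (adjusted p = 0.052) or ZT03 replicate 3 (0.064), and the ZT03-ZT15 contrast lost it without any 1 heart of ZT03, ZT07 replicate 1 or ZT15 replicate 2, 3 or 4, with adjusted p from 0.050 to 0.13 in limma.

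**Figure D2:**
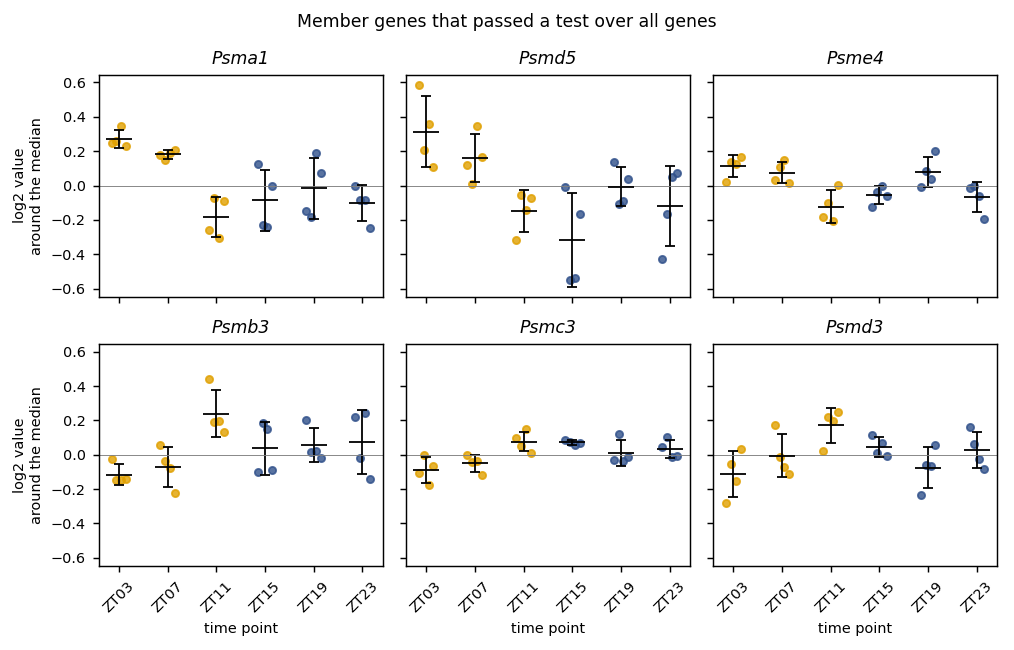
Log2 values around the gene's own median (vertical axis) at the 6 time points for the 6 members that passed a test over all genes; points are hearts, horizontal bars the mean and error bars 1 SD (n = 4). Psma1, Psmd5 and Psme4 sit high at ZT03, and Psmb3, Psmc3 and Psmd3 sit low there and high at ZT11.

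The sequences upstream of Psma1, Psmd5 and Psmb3 are shown because these members had the largest differences among those that passed a test, and because Psmb3 ran opposite to the others. They are the 250 bases before the annotated start, 5′ to 3′ on the gene's strand, from RefSeq on GRCm38.p6. Capitals mark CCAAT boxes in either orientation (CCAAT or ATTGG).
Psma1, chr7:114276117-114276366, minus strand: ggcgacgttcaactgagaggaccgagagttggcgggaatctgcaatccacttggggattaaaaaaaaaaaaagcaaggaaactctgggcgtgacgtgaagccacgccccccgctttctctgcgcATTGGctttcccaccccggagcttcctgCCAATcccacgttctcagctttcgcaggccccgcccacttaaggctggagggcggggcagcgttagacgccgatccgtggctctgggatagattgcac
Psmd5, chr2:34870963-34871212, minus strand: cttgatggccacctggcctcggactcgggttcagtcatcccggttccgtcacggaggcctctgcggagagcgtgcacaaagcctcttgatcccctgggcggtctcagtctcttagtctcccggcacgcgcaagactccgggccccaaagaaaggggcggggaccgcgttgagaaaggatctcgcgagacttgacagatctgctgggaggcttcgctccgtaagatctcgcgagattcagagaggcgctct
Psmb3, chr11:97703184-97703433, plus strand: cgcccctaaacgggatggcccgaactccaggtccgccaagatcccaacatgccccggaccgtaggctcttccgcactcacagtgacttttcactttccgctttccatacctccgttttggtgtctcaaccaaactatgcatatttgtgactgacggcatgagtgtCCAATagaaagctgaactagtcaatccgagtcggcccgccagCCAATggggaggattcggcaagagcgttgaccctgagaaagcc

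For the promoters, 3 kinds of element were searched on both strands of these windows: the core of the antioxidant response element bound by NFE2L1 and NFE2L2 (TGACNNNGC), the E-box bound by CLOCK and its partner (CACGTG), and the CCAAT box (CCAAT). No motif holds another within its letters. A promoter was given for 41 of the 49 members, some with several starts, 45 windows in all. The response element core was in 5 windows (11.1%, against 10.2% of the 32851 promoters in the table), those of Psmb5, Psmb6, Psmc6, Psmd12 and Psmd9. The E-box was in 4 (8.89% against 6.02%), those of Psmb10, Psmd9, Psme3 and Psme3ip1. The CCAAT box was in 16 (35.6% against 33.8%). As printed above, Psma1 and Psmb3 each hold CCAAT boxes, Psmd5 none of the motifs, and none of the 3 an E-box. These shares describe letters in a window and say nothing of what binds there.

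Psmd5 encodes a chaperone that holds the ATPase base during assembly of the cap. Its hearts lay at 0.59, 0.20, 0.36 and 0.11 at ZT03, and at 0.12, 0.0077, 0.35 and 0.16 at ZT07. At ZT11 they lay at -0.32, -0.054, -0.14 and -0.074, and at ZT15 at -0.0077, -0.55, -0.54 and -0.16. The ZT03 hearts were above all hearts of ZT11 and ZT15; the ZT15 hearts spread widely. The mean was 0.31 ± 0.21 (SD, n = 4) at ZT03 and -0.32 ± 0.27 (SD) at ZT15, and the difference of 0.63 gave an adjusted p of 0.024 in limma. Leaving out ZT03 replicate 1, ZT03 replicate 3, ZT15 replicate 2 or ZT15 replicate 3 ended that call, with limma adjusted p from 0.066 to 0.082 and differences of 0.54 to 0.62. Against ZT11 the ZT03 value of Psmd5 was 0.46 ± 0.13 (SE) higher, with an adjusted p of 0.061 (limma), and the F test gave 0.061.

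Of the 3 chaperones of the cap, Psmd9 and Psmd10 passed no test. Psmd9 had its hearts at 0.36, 0.32, 0.091 and 0.050 at ZT19 and at -0.11, -0.056, -0.16 and -0.15 at ZT03. The ZT19 hearts of Psmd9 did not overlap those of ZT07, at -0.19, 0.041, 0.050 and -0.27, although the nearest hearts of the groups both round to 0.050. The contrast of ZT07 with ZT19 was -0.30, adjusted p = 0.72 in limma. For Psmd10, ZT03 minus ZT15 was 0.20 ± 0.10 (SE), adjusted p = 0.42 (limma).

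Psme4 encodes PA200, an activator found in the nucleus that binds the core in place of the cap. Its hearts lay at 0.018, 0.14, 0.12 and 0.17 at ZT03 and at -0.18, -0.10, -0.21 and 0.00076 at ZT11. The groups did not overlap, but ZT03 replicate 1 and ZT11 replicate 4 were close. The difference was 0.23 ± 0.053 (SE), adjusted p = 0.023 in limma, and the F test gave 0.052. The call for Psme4 was lost without ZT03 replicate 2, 3 or 4 or ZT11 replicate 1 or 3, with adjusted p from 0.051 to 0.084. Of the other activator and inhibitor genes, the ring activator Psme3 had a ZT03-ZT11 difference of 0.13, adjusted p = 0.29, and none of Psme1, Psme2 and Psmf1 passed a test in limma. Psme2 had the largest range of means among them, 0.29, from 0.17 at ZT11 to -0.12 at ZT19.

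Psmb3 encodes a beta subunit without a peptidase site. Its hearts lay at -0.025, -0.15, -0.15 and -0.14 at ZT03 and at 0.44, 0.19, 0.19 and 0.13 at ZT11. All ZT03 hearts were below all ZT11 hearts, and ZT11 replicate 1 stood highest. The means were -0.11 ± 0.06 (SD, n = 4) and 0.24 ± 0.14 (SD), and the difference was -0.35 ± 0.088 (SE), adjusted p = 0.036 in limma. Without ZT11 replicate 1 the difference of Psmb3 was -0.29 and the adjusted p 0.14. The call was also lost without any 1 of the 4 ZT03 hearts or without ZT11 replicate 2 or 3, with adjusted p from 0.052 to 0.11. At ZT15 its hearts split into 0.18 and 0.15 against -0.099 and -0.088.

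The ATPase gene Psmc3 and the lid gene Psmd3 showed the same direction as Psmb3. For Psmc3 the hearts lay at -0.11, 0.0017, -0.18 and -0.067 at ZT03 and at 0.096, 0.053, 0.15 and 0.013 at ZT11. Its ZT15 hearts, at 0.087, 0.073, 0.058 and 0.069, were the closest together. ZT03 of Psmc3 overlapped neither ZT11 nor ZT15. The ZT03-ZT11 difference was -0.16 ± 0.042 (SE), adjusted p = 0.039, and the ZT03-ZT15 difference -0.16, adjusted p = 0.068 (limma). The first call was lost without ZT03 replicate 1, 3 or 4 or ZT11 replicate 1, 2 or 3, with adjusted p from 0.051 to 0.16, and quantile normalization gave 0.055.

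For Psmd3 the hearts lay at -0.28, -0.055, -0.15 and 0.036 at ZT03 and at 0.023, 0.22, 0.20 and 0.25 at ZT11. These groups overlapped, since ZT03 replicate 4 was above ZT11 replicate 1. The difference of Psmd3 was -0.28 ± 0.075 (SE), adjusted p = 0.047 in limma. This call stood closest to the threshold: it was lost in 16 of 24 fits with 1 heart left out, where the adjusted p ran from 0.053 to 0.15. These hearts were ZT03 replicates 1 to 3, ZT11 replicates 2 to 4 and 10 hearts of the other times. The Psmd3 call was also lost with the replicate number as a block, with a robust variance prior and with all features tested. In all it was lost in 19 of the 31 alternatives.

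Between ZT03 and ZT11, 5 of the 49 members were called by limma at an adjusted p under 0.05, against 2.29% of all genes. Of these, 2 were higher at ZT03 (1.83% of all genes) and 3 lower (0.451%). At an unadjusted p under 0.05 there were 17 members, 34.7% of them, against 14.5% of all genes. The 11 higher at that level (8.99% of all genes) were Psma1, Psma2, Psma6, Psmb2, Psmd5, Psmd7, Psmd12, Psme3, Psme4, Psmg2 and Psme3ip1, and the 6 lower (5.52%) were Psmb3, Psmc3, Psmc4, Psmd3, Psmd8 and Psmd13. The median difference over all members was 0.03, against -0.0050 over all genes, and 27 members were above 0. The hearts of the times did not overlap for 5 members higher at ZT03 (4.62% of all genes), Psma1, Psmd5, Psmd12, Psme4 and Psmg2, and for 2 lower (3.47%), Psmb3 and Psmc3. Leaving out ZT03 replicate 3 or ZT11 replicate 3 left 1 member called, Psma1, and leaving out any other heart left 2 to 6. The contrast was chosen because many genes of this series were known from an earlier analysis to differ over this span.

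**Figure D3:**
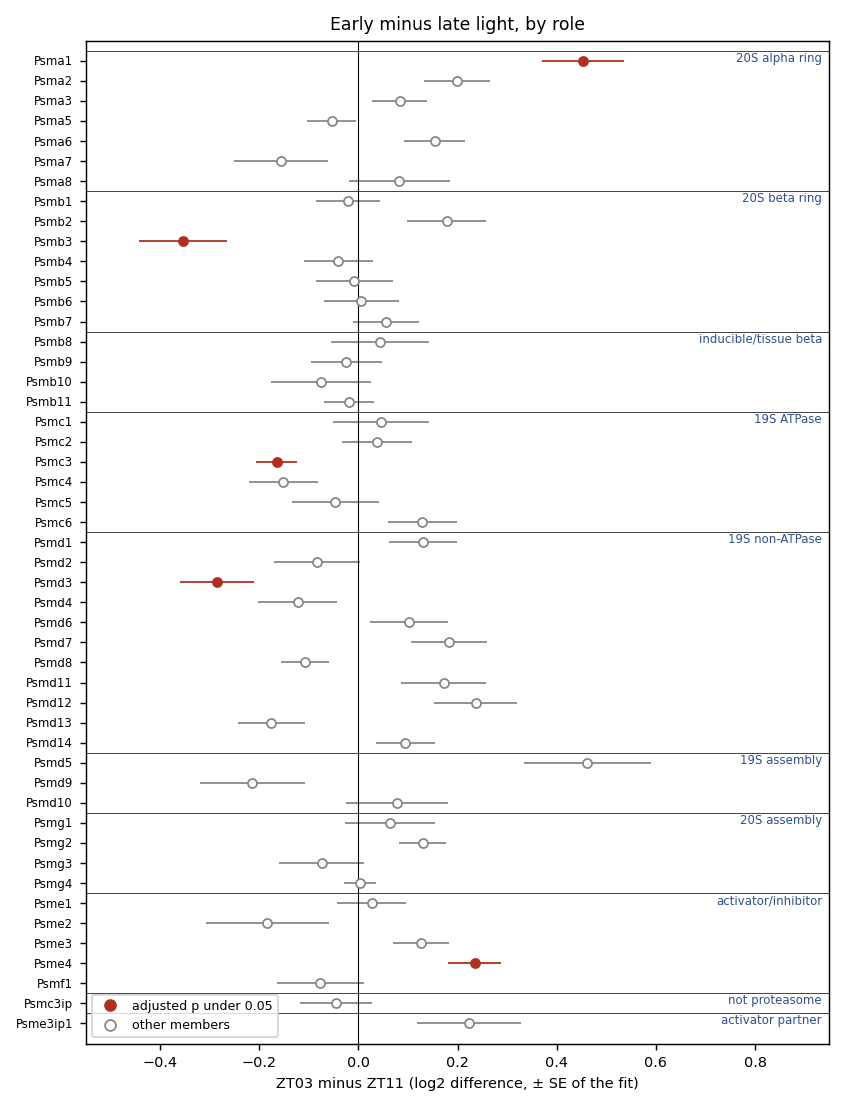
Difference ZT03 minus ZT11 (log2, horizontal axis) with its SE for each of the 49 members, grouped by role; filled points passed limma's test over all genes. The 5 filled points lie on both sides of 0, from -0.35 for Psmb3 to 0.45 for Psma1, and Psmd5 at 0.46 has a wide error.

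By role, 5 of the 7 alpha ring genes were above 0 in ZT03 minus ZT11, with a median of 0.084, and 1, Psma1, passed. These 7 include Psma8, at 0.083, and leave out Psma4, which is not a member. Psma2 was at 0.20 ± 0.067 (SE), adjusted p = 0.14, and Psma7 at -0.16, adjusted p = 0.51 (limma). In the beta ring 3 of 7 were above 0, with a median of -0.0083, and Psmb3 passed. The peptidase subunits lay near 0: Psmb5 at -0.0083, Psmb6 at 0.0058 and Psmb7 at 0.056, none of which passed. In the ATPase ring 3 of 6 were above 0, with Psmc6 highest at 0.13 and Psmc3 lowest at -0.16.

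Among the 11 other subunits of the cap, 6 were above 0 in ZT03 minus ZT11 and 5 had an unadjusted p under 0.05 (14.5% of all genes), of which 1, Psmd3, passed after adjustment in limma (2.29%). Psmd12, of the lid, was at 0.24 ± 0.084 (SE), adjusted p = 0.16. The deubiquitinase gene Psmd14 was at 0.094, adjusted p = 0.53, and the ubiquitin receptor gene Psmd4 at -0.12, adjusted p = 0.55 (limma). Lid genes thus ran from Psmd3 at -0.28 and Psmd13 at -0.18 to Psmd12 at 0.24, and the difference between lid genes was not tested.

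The inducible subunits Psmb8, Psmb9 and Psmb10, which replace the peptidase subunits in the immunoproteasome, and Psmb11, known from the thymus, gave no call. Of these 4, none had an unadjusted p under 0.05 in any of the 7 limma tests. Psmb8 had the smallest F-test p, with an adjusted p of 0.71, and its extreme means were 0.12 ± 0.19 (SD, n = 4) at ZT19 and -0.07 ± 0.16 (SD) at ZT23. Its hearts at ZT19 lay at -0.031, 0.38, -0.00067 and 0.14, and replicate 2 was the highest. Among the chaperones of the core, Psmg2 was at 0.13, 0.15, 0.13 and 0.081 at ZT03 and at -0.079, -0.036, -0.023 and -0.039 at ZT23. Its F test gave an adjusted p of 0.21 in limma. The features of Psmg2 differed: 1 gave a ZT03-ZT11 difference of 0.27 and the other -0.013. Features also differed for Psma5, with ranges of means of 0.27 and 0.051, and for Psmc2, with ZT03-ZT15 differences of 0.12 and -0.12.

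Against ZT15, 12 h from ZT03, 2 members were called in limma, Psmd5 and Psma1, both higher at ZT03 (1.08% of all genes, 0.879% higher). The same ZT03 hearts serve both contrasts, so the contrasts are not independent. At an unadjusted p under 0.05 there were 12 members, 24.5% of them, against 13% of all genes. Of these members, 8 were higher (7.96% of all genes) and 4 lower (5.05%). Psmd11, a subunit of the lid of the cap, had ZT03 hearts at 0.10, 0.23, 0.043 and 0.26 and ZT15 hearts at -0.037, -0.18, -0.28 and -0.068. They did not overlap, and the difference of 0.30 ± 0.085 (SE) gave an adjusted p of 0.094 in limma. Psmd13 had the opposite sign: its ZT03 mean was -0.16 ± 0.06 (SD, n = 4) and its ZT15 mean 0.09 ± 0.11 (SD), adjusted p = 0.087 (limma). Hearts did not overlap for 7 members higher at ZT03 (4.62% of all genes) and 2 lower (3.41%). The median over members was -0.0057, against -0.0051 over all genes. Without ZT03 replicate 1, ZT03 replicate 3, ZT15 replicate 2 or ZT15 replicate 3 the count called was 0, and without ZT03 replicate 2 or 4, ZT07 replicate 1 or ZT15 replicate 4 it was 1, Psmd5.

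The other pairs of opposite times gave no called member. Between ZT07 and ZT19, 0 members passed limma's test and 5 (10.2%) had an unadjusted p under 0.05, against 0% and 5.58% of all genes. They were Psma1 (0.20), Psmc6 (0.16) and Psme3ip1 (0.24) above 0 (2.98% of all genes), and Psma5 (-0.16) and Psmd9 (-0.30) below (2.6%). Hearts did not overlap for 2 members lower at ZT07 (1.84% of all genes), Psma5 and Psmd9, and for none higher (1.79%). Between ZT11 and ZT23, 0 passed in limma, against 0% of all genes. At an unadjusted p under 0.05 there was 1 member (2.04%), Psmb5 at -0.17, against 7.34% of all genes (3.62% higher, 3.72% lower). No member's hearts were apart in that pair, where 1.62% of all genes were higher and 1.7% lower without overlap.

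Light against dark hearts, 12 each, gave 0 called members in limma, against 0.379% of all genes. At an unadjusted p under 0.05 there were 9 members (18.4%), against 10.5% of all genes. Higher in the light at that level were Psmd5 (0.26), Psma1 (0.16), Psmd11 (0.15) and Psmc1 (0.12), 4 members against 6.3% of all genes. Lower were Psmb5 (-0.11), Psmd13 (-0.098), Psmc4 (-0.097), Psma5 (-0.061) and Psmc3 (-0.058), 5 members against 4.23%. The smallest adjusted p was 0.15, for Psmd5.

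A curve of period 24 h passed limma's test for 0 members, against 0.0631% of all genes. An unadjusted p under 0.05 was reached by 7 members (14.3%), against 10.8% of all genes. The smallest adjusted p was 0.16, for Psmd5, whose fitted amplitude, the distance from mean to peak, was 0.25 with a peak 3.61 h after lights on. Psma1 (0.17, peak at 3.78 h) and Psmd11 (0.11, 4.50 h) peaked close to it. Psmc3 (0.071, 15.2 h), Psmd13 (0.092, 15.6 h), Psmc4 (0.090, 16.2 h) and Psma5 (0.059, 18.3 h) peaked in the dark phase. Only 1 cycle was sampled, so these curves describe the profile.

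**Figure D4:**
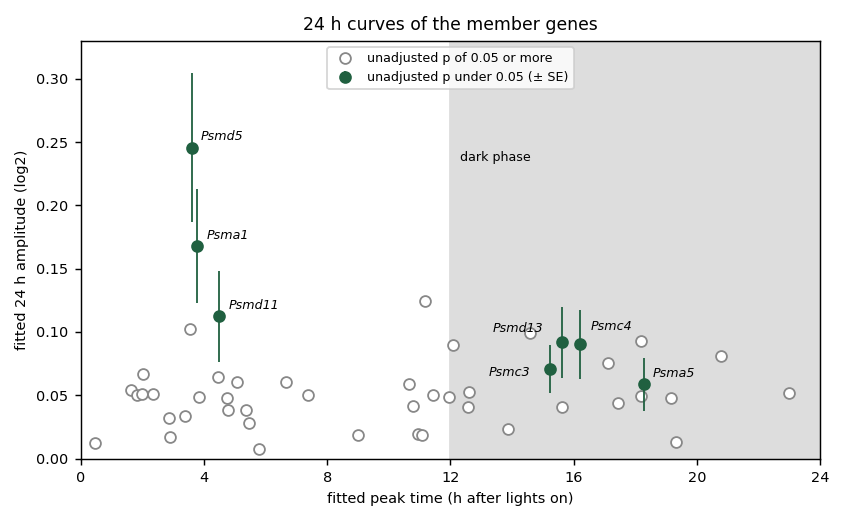
Fitted amplitude (log2, vertical axis) against fitted peak time (hours after lights on, horizontal axis) of a 24 h curve for the 49 members; the dark phase is shaded, and filled points with SE are the 7 members with an unadjusted p under 0.05. The 3 early ones peak between 3.61 and 4.50 h and the 4 late ones between 15.2 and 18.3 h, and none passed after adjustment.

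As a set, members had a larger range of time means than the median gene, 0.17 against 0.12, and also a larger SD within times, 0.112 against 0.087. ZT03 held the highest mean of 17 of the 49 members, 34.7%, against 17.3% of all genes. It held the lowest of 10 of the 49 (21.5% of all genes). ZT07 held the highest of 7 of the 49 (13.9% of all genes). ZT23 held the highest of 2 of the 49 (16.3% of all genes) and the lowest of 8 (15.5% of all genes). Per heart, 17 to 32 of 49 members were above their own median (34.7% to 65.3%, against 44.6% to 52.8% of all genes). At ZT03 these were 25 to 32 members, at ZT07 25 to 31, at ZT11 19 to 29, at ZT15 18 to 30, at ZT19 22 to 25 and at ZT23 17 to 26. The ranges of most times overlap, and the 4 hearts of ZT19 did not exceed the lowest of ZT03 and ZT07.

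Genes that act with the proteasome but carry other symbols were taken from lists by function. Of 12 measured cofactors, 2 were called in ZT03 minus ZT11 (2.29% of all genes), both higher at ZT03 (1.83%). Usp14, a deubiquitinase that docks on the cap, had ZT03 hearts at 0.23, 0.45, 0.19 and 0.11 and ZT11 hearts at -0.15, -0.081, -0.031 and -0.14. They did not overlap, and the difference was 0.35 ± 0.064 (SE), adjusted p = 0.0073 in limma, kept in all 31 alternatives. Its F test gave 0.021, which rose to 0.051 without ZT03 replicate 3. Ecpas, the gene of an adaptor that ties cap to core, was 0.31 ± 0.073 (SE) higher at ZT03 than at ZT11, adjusted p = 0.026 (limma). Its lowest ZT11 heart, replicate 1, lay at -0.45, and without it the difference was 0.22, adjusted p = 0.074. The call was also lost without ZT03 replicate 2, 3 or 4 or ZT11 replicate 3, with adjusted p from 0.059 to 0.077. Against ZT15, 1 of the 12 cofactors was called (1.08% of all genes, 0.879% higher), Usp14, at 0.29 ± 0.064 (SE), adjusted p = 0.031 (limma). That call was lost without ZT03 replicate 1, 2 or 3 or ZT15 replicate 2, 3 or 4, with adjusted p from 0.059 to 0.095. Pomp, the maturation factor of the core, was at 0.028, adjusted p = 0.93 (limma).

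In the list of 12 measured genes around NFE2L1, the factor that drives proteasome gene transcription when proteasomes are short, 1 was called. It was called in ZT03 minus ZT11 (2.29% of all genes, 1.83% higher) and in the F test (1.48%). Ngly1, the glycanase that processes NFE2L1, had ZT03 hearts at 0.12, 0.26, 0.16 and 0.25 and ZT11 hearts at -0.45, -0.24, -0.40 and -0.053. The groups were apart, with a difference of 0.49 ± 0.075 (SE), adjusted p = 0.0033, and an F-test adjusted p of 0.021 (limma). The call of the difference was kept in all 31 alternatives, while the F-test call was lost without ZT03 replicate 3 (0.051), without ZT11 replicate 3 (0.055) and without the 3 arrays of lowest weight (0.071). Nfe2l1 itself was at -0.10 ± 0.12 (SE), adjusted p = 0.80 (limma), with ZT03 hearts from -0.34 to 0.29.

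Upstream of the proteasome, Uba6, an enzyme that activates ubiquitin, was the only measured gene of 6 listed ubiquitin and activating-enzyme genes. Its ZT03 hearts lay at 0.22, 0.28, 0.34 and 0.22, its ZT11 hearts at -0.55, -0.34, -0.14 and 0.096. The difference was 0.50 ± 0.11 (SE), adjusted p = 0.015 (limma), and without ZT11 replicate 1 it was 0.39, adjusted p = 0.063. Without ZT03 replicate 3 the adjusted p was 0.062. Uba6 was also called 0.50 higher at ZT03 than at ZT15 (1.08% of all genes). Leaving out 1 heart ended that call for 6 hearts, with adjusted p from 0.053 to 0.094 in limma. Its F-test call (1.48% of all genes) was lost in 25 of the 31 alternatives, 21 of them with 1 heart left out. Of 12 measured ubiquitin ligase genes of heart and muscle, 1 was called higher at ZT03 than at ZT11 (1.83% of all genes) and 2 lower (0.451%). At an unadjusted p under 0.05 in limma there were 6 of the 12 (14.5% of all genes), 3 of them higher at ZT03 (8.99%). Cul3, a ligase scaffold, was 0.39 ± 0.070 (SE) higher, adjusted p = 0.0065 (limma), a call kept in all 31 alternatives. Cul3 also passed the F test (1.48% of all genes). That call was lost without ZT03 replicate 2 or 3, ZT11 replicate 2 or the 3 arrays of lowest weight. In ZT03 minus ZT11, Asb2, a substrate adaptor of muscle, was at -0.34, adjusted p = 0.036 (limma). Trim54, a ligase of the sarcomere, was at -0.25, adjusted p = 0.040 (limma). Leaving out 1 heart ended these calls for 5 hearts in Asb2 and 7 in Trim54, with adjusted p up to 0.13 and 0.15. The Trim54 call was also lost with 1 feature per gene, with all features tested and without the 3 arrays of lowest weight. In all it was lost in 10 of the 31 alternatives, where the difference ran from -0.33 to -0.16. None of 12 shuttle and p97 genes nor of 9 antigen processing genes passed any of the limma tests. At an unadjusted p under 0.05 in ZT03 minus ZT11 these were 3 and 2 genes, against 14.5% of all genes. The smallest F-test values of these lists were those of Ufd1 (adjusted p = 0.35) and Ubxn4 (0.51), which act with p97, and of the interferon factor gene Irf1 (0.11) and the peptide transporter gene Tap2 (0.23), by limma.

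**Figure D5:**
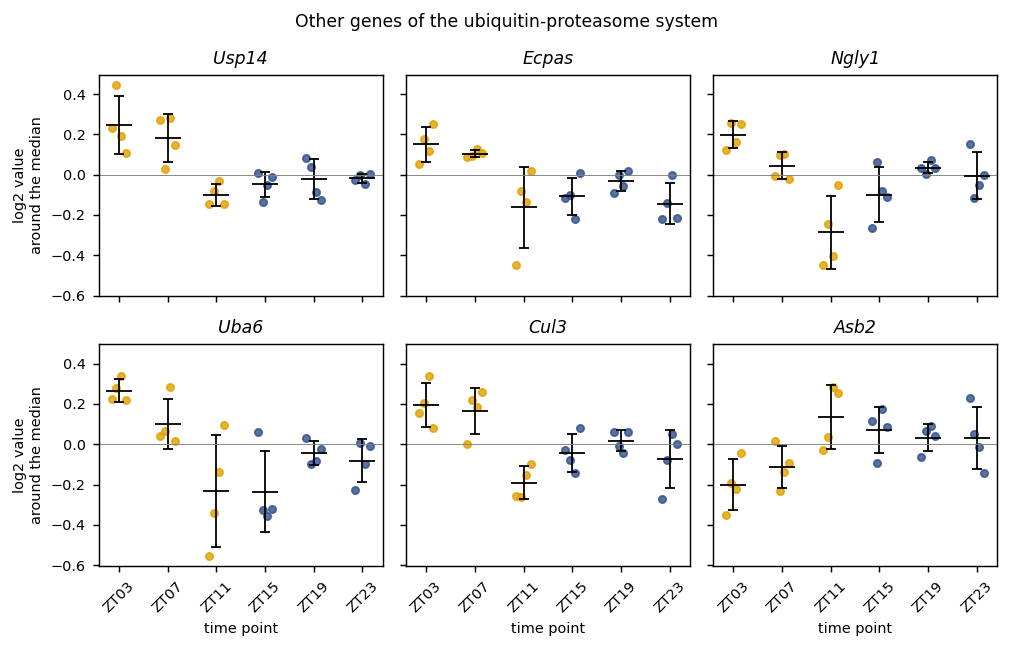
Log2 values around the gene's own median (vertical axis) at the 6 time points for Usp14, Ecpas, Ngly1, Uba6, Cul3 and Asb2; points are hearts, horizontal bars the mean and error bars 1 SD (n = 4). All but Asb2 sit high at ZT03 and low at ZT11, by 0.31 to 0.50 on the log2 scale, and Asb2 runs the other way by 0.34.

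Of the cell type markers, 1 fibroblast and 1 cardiomyocyte gene were called over the same hours. Of all genes, 2.29% were called between ZT03 and ZT11 and 1.08% between ZT03 and ZT15. Of 5 fibroblast markers, Dcn was called, 0.28 ± 0.072 (SE) higher at ZT03 than at ZT11 (adjusted p = 0.043) and 0.30 higher than at ZT15 (0.047, limma). At an unadjusted p under 0.05 in limma, 3 of the 5 were higher at ZT03 than at ZT11 (8.99% of all genes). Against ZT15 this number was also 3 (7.96% of all genes). The 5 differences between ZT03 and ZT11 ran from -0.075 to 0.31, with a median of 0.23. The mean of the fibroblast markers was 0.063 to 0.20 in the ZT03 hearts, -0.094 to 0.11 at ZT11 and -0.11 to 0.11 at ZT15. Of 7 cardiomyocyte markers, Tnni3 was called, at -0.23 ± 0.058 (SE), adjusted p = 0.038 (limma), and the mean of that list was -0.086 to 0.038 at ZT03 and -0.017 to 0.051 at ZT11. Leaving out 1 heart ended these calls for 16 hearts in each Dcn contrast and 6 in Tnni3. The part of cell composition in the differences of Psma1, Psmd5, Psme4, Psmb3, Psmc3 and Psmd3 was not tested. In the other 7 measured marker lists no gene was called in limma. The mean of the 4 atrial markers differed widely between hearts of 1 time. It ran from -0.23 to 0.64 at ZT03, from -0.42 to 0.67 at ZT07 and from -0.14 to 0.72 at ZT11.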

How the data were processed

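Heart samples, 24 in all, were measured on one-colour Affymetrix arrays from 500 ng of total RNA with biotin label, per the labels' protocols. The authors deposited log values, taken here as log2, centred on each feature's median over the arrays; for summarization, normalization, log base and filters, nothing is stated in the labels or files used. With natural logs every size would be 1.44 times larger, and p-values would not move. Of 34351 features, 23521 had 1 gene symbol in the platform annotation; features of a gene were averaged to 22180 genes, with no filter. The 49 members hold 52 features. limma 3.58.1 in R 4.3.3 fitted the 6 time means, the contrasts named and a cosine and sine pair of 24 h on all genes and arrays, with Benjamini-Hochberg adjustment over all genes at 0.05, after being tested on simulated data. The members, the lists and the contrast of ZT03 with ZT11 were chosen with earlier results of these data known. Members are named if they passed a test, had the smallest time-of-day p of their role or the largest ranges of means; list genes if they passed a test, otherwise the 2 of smallest p. Other members are given where a count needs its names, or as a role's examples, chosen after their values were seen. The alternatives were quantile normalization, array weights, 1 feature per gene, the replicate number as a block, all features, a robust variance prior, each heart left out, and, chosen after seeing the data, the 3 arrays of lowest weight left out.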

Additional observations from a re-analysis of the deposited data

Results flagged for a closer look

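In groups of 4 hearts, a heart standing apart from the other 3 was looked for in the members named by the rule and in the median of the members per heart. Of 66 groups, 5 had such a heart, where chance gives about 1 in 20, or 3.3. Psmb3 at ZT03 had replicate 1 at -0.025 and the others at -0.14 to -0.15. Psmc3 at ZT19 had replicate 2 at 0.12 and the next heart at -0.012. Psmd11 at ZT07 had replicate 2 at -0.17 and the next at 0.13. Psmg2 at ZT15 had replicate 1 at 0.023 and the next at -0.016. The median over the 49 members at ZT07 was 0.026 in replicate 3 and 0.0041 in the next heart.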

How the results depend on the processing

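The counts of called members were 0 in all 31 alternatives for the 24 h curve, light against dark, ZT07 against ZT19 and ZT11 against ZT23. For the F test, 1 as reported, the count was 2 with quantile normalization, 3 with array weights, 0 without the 3 arrays of lowest weight (an alternative chosen after seeing the data), and 0 to 2 with 1 heart left out. For ZT03 against ZT15, 2 as reported, it was 1 with the replicate block, 1 with all features tested, and 0 to 3 with 1 heart left out. For ZT03 against ZT11, 5 as reported, it was 4 with quantile normalization, the replicate block, the robust variance prior or all features tested. With array weights the count was 6. It was 2 (Psma1 and Psmd3) without the 3 arrays of lowest weight and 1 to 6 with 1 heart left out. The cause was not tested. Of 744 refits of 24 single-gene results, 572 kept the call, 172 lost it and 0 changed direction. Over all genes, the counts with 1 heart left out were 28 to 467 in the F test, where 329 were reported, 25 to 326 of 239 for ZT03 against ZT15 and 190 to 747 of 507 for ZT03 against ZT11. Deviations from the time means correlated from -0.23 to 0.23 over 60 pairs of the same replicate number, 8 of them over 0.1. Over 180 pairs of other numbers they correlated from -0.24 to 0.25, 18 of them over 0.1. The medians were -0.00075 and -0.00096. The labels do not tie numbers to a litter, batch or day, so the hearts were treated as sharing only a number. Of 24 hearts, 10 were matched best by a heart of their own number, where an even share gives 6. Whether this count is a hint of pairing was not tested, and the design gives no pairing. With the replicate block, the F test called 218 genes. Signal over background is unknown, since the values are centred.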
